A study of Arabidopsis thaliana with 18 samples.

Results

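The 150 nuclear genes described here had the lowest ratio of gene body reads, libraries labelled xrn3 over Col-0, in Ser2P pNET-seq of Arabidopsis seedlings. pNET-seq maps the RNA 3' ends held by RNA polymerase II (Pol II), here pulled down with an antibody against Pol II whose C-terminal domain is phosphorylated at serine 2 (Ser2P). Members were taken from the tables of genes with a Ser2P peak at the 3' end. Of 17714 nuclear genes listed for both genotypes, 16639 had at least 30 gene body reads in each and were eligible, and reads were scaled to the total over these genes, giving reads per 1000000 (RPM). The genes were thus chosen by the pNET-seq gene body values of these 2 conditions. All samples were seedlings 14 days old. The libraries compared were the T-DNA insertion mutant xrn3 and untreated Col-0 wild type (pNET-seq and RNA-seq of chromatin-bound RNA, named CB-RNA-seq), and Col-0 immersed for 1 h in buffer with 5 µM herboxidiene (GEX1A) or with the solvent DMSO (pNET-seq and total RNA-seq), with brief vacuum. The values analysed come from tables that pool the libraries of a condition, so no spread between replicates is given and no test was made. A gene is counted as higher or lower from 1.5-fold on, and intervals are exact 95% binomial intervals that cover counting error only.

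XRN3 is a nuclear exonuclease that degrades RNA from its 5' end. In the torpedo model of termination such an enzyme digests the RNA still being made after cleavage at the polyadenylation site and helps to release Pol II. Ser2P builds up on Pol II towards the end of genes. Some of the members belong to families known from plant immunity, in which receptors at the cell surface sense microbial patterns, calmodulin-binding and WRKY transcription factors relay the signal, and chitinases, oxidases and glutathione transferases act as effectors or protect the cell. Seedlings are whole plants, so fewer cells of a type and less RNA per cell cannot be told apart.

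The label xrn3 was checked on its own gene first. XRN3 (AT1G75660) had 9931 gene body reads in the libraries labelled xrn3, then 84 in DMSO and 302 in Col-0, or 409.8, 19.4 and 24.9 RPM. Its gene body signal was therefore higher, not lower, in the libraries labelled xrn3, and a read count does not show whether the mutant transcript is functional. On chromatin, XRN3 had 6925 exonic reads in the libraries labelled xrn3 and 8055 in Col-0, a ratio of 0.811 (0.785 to 0.837). Gene body reads over nuclear genes summed to 25790239 in xrn3, 3874349 in DMSO, 3671597 in GEX1A and 12224996 in Col-0. Among the eligible genes, root-enriched markers (10 of 15 listed genes) summed to 4485 RPM in the libraries labelled xrn3 and 5336 in Col-0, and nuclear photosynthesis genes (25 of 25) to 32059 and 28118 RPM in the same order. On chromatin 6 of these root markers and 21 of these photosynthesis genes were measured, and their exonic reads summed to 8727 RPM in the libraries labelled xrn3 and 7166 in Col-0 for root markers, and to 29435 and 22865 RPM in the same order for photosynthesis genes. Over just these 6 and 21 genes, gene body sums were 4353 and 5182 RPM for root markers and 27484 and 23382 for photosynthesis genes, so the root markers were lower in gene body reads and higher on chromatin in the libraries labelled xrn3. None of the 10 inflorescence and seed markers was eligible. The part of tissue make-up in the results below was not tested.

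The values that chose the members are given as a description. Members took 0.942% of eligible gene body reads in the libraries labelled xrn3 and 1.96% in Col-0. A large part of this was 1 gene, BT2. It had 88557 of the members' 228236 reads in the libraries labelled xrn3 and 82938 of 237617 in Col-0. Their log2 ratio had a median of -1.10 and ran over -3.08 to -0.89, while that of all eligible genes had a median of -0.03. Each genotype was scaled to its own total, so a fall shared by most genes would not show here. The paper reports a slight fall of gene body Pol II across the genome in the mutant. The members' median was 6.70 RPM in the libraries labelled xrn3 and 19.2 in Col-0. At least 1.5-fold lower were all 150 members, as the rule fixes, and 4.09% of eligible genes. None was at least 1.5-fold higher, as 8.95% of eligible genes were, and 101 members were at least 2-fold lower. At the limit of the set, AT-IE, ATO and scpl31 were the last inside, at ratios of 0.538, 0.539 and 0.539. AT1G30755, AT5G05570 and THH1 were the first outside, at 0.540, 0.540 and 0.541, so the limit cuts through a continuous range.

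**Figure D1:**
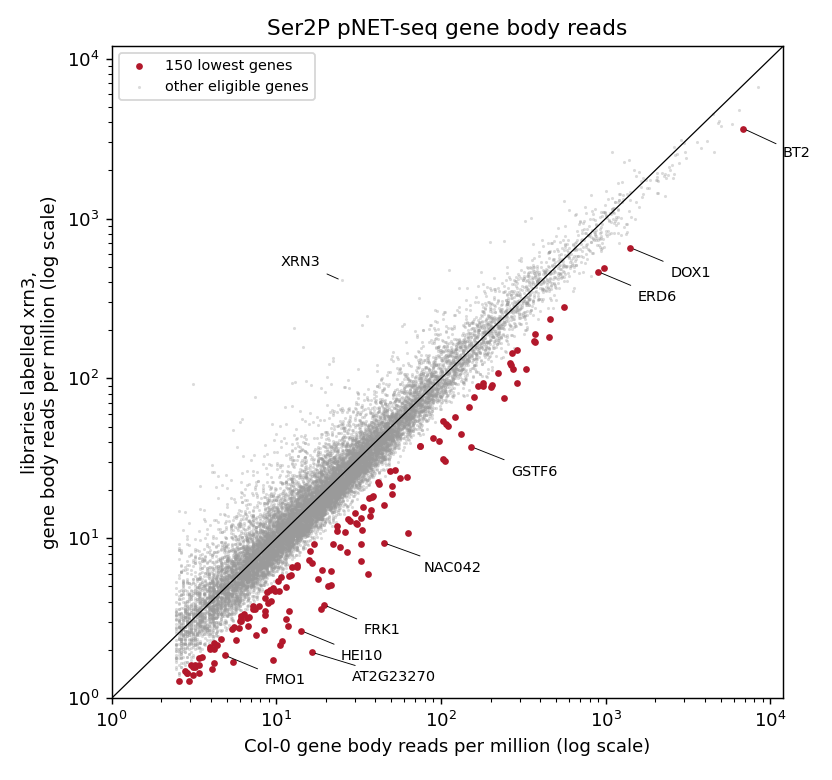
Gene body reads in RPM in Ser2P pNET-seq, libraries labelled xrn3 (y axis) against Col-0 (x axis), both log scales, 1 point a gene, red for the 150 members and grey for the other eligible genes, with the line of equal values. The red points lie below the line over the whole range of levels, from AT2G32650 (1.28 against 2.56 RPM) to BT2 (3654 against 6842), because the rule chose them so, and XRN3 lies far above the line.

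The sequences of 3 promoters, the 250 bases before the deposited gene start (TAIR10 sequence, read 5' to 3' on the gene's strand), are shown because they hold the W-box, the site bound by WRKY transcription factors of the immune response. FRK1 is a widely used immune marker, AT5G44585 held 4 matches and NAC042 is a transcription factor gene among the 10 lowest. Capitals mark W-box matches (TTGACC or TTGACT on either strand). FRK1 lies at chr2:8329945-8330194 (minus strand), AT5G44585 at chr5:17984366-17984615 (plus strand) and NAC042 at chr2:17882637-17882886 (minus strand).
FRK1: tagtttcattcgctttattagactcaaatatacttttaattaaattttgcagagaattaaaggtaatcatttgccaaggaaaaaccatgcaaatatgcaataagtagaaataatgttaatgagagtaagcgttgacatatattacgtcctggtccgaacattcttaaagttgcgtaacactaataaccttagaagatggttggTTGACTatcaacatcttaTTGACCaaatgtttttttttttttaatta
AT5G44585: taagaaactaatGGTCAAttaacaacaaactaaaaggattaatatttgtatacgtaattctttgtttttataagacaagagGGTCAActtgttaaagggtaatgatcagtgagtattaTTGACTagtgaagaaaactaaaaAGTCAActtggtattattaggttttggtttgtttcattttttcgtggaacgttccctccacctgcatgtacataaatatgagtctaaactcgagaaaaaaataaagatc
NAC042: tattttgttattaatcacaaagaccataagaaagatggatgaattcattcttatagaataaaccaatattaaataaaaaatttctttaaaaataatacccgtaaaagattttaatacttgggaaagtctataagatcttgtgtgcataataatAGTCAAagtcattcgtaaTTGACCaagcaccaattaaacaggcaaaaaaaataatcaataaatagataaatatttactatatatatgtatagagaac

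Over the set, 79 of 150 promoters (52.7%) held a W-box, and 29.1% of the 16639 eligible promoters of the same length did. At least 2 matches were found in 27 members (18.0%) and in 6.08% of eligible promoters. Mean GC content was 32.1% in the members' promoters and 32.8% in all. Other motifs were also searched on both strands. The heat shock element GAANNTTC was in 27 members (18.0%, against 9.30% of eligible promoters), the TATA box TATAAA in 84 (56.0%, against 45.7%) and the GCC-box GCCGCC, a site of ethylene-response factors, in 7 (4.67%, against 2.44%). The site II element TGGGCC, found in front of many housekeeping genes, was in 15 (10%, against 18.9%), and the G-box CACGTG in 9 (6%, against 9.25%). The telo box AAACCCTA was in 9 (6%, against 5.53%), the evening element AAAATATCT in 4 (2.67%, against 2.31%) and the rapid stress element CGCGTT in 4 (2.67%, against 3.56%). No motif contains another, and a match is a description of letters, not of a bound site. FMO1, SARD1, HEI10 and GLR2.5 held no W-box match in this window.

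By function, the set held more genes of cell surface receptor and defence enzyme families than their share of eligible genes. The families were picked after the values were seen, from words in the RefSeq product names, so the counts are descriptions. Receptor-like kinases made up 15 members (10%, against 1.22% of eligible genes) and glutathione transferases 6 (4%, against 0.192%). Chitinases made up 3 (2.00%, against 0.0601%) and Berberine family oxidases 3 (2.00%, against 0.0721%). The word peroxidase stood in the product names of 4 members (2.67%, against 0.294%). They were AT5G39580, TPX2 (thioredoxin-dependent), APX5 (ascorbate peroxidase) and DOX1, which is an alpha-dioxygenase, so this match is mixed and not 1 family. Words for defence stood in the RefSeq notes of 19 members (12.7%) and of 3.88% of eligible genes. The median log2 ratio over all eligible genes of a kind was -0.08 for the 203 receptor-like kinases and 0.06 for 32 glutathione transferases. It was 0.01 for 49 genes named for peroxidase, -0.41 for 10 chitinases and -0.33 for 12 Berberine family oxidases. For the 645 genes with defence words it was -0.03. Most receptor-like kinases, glutathione transferases and genes named for peroxidase were thus not members. The middle of each of these groups was near that of all eligible genes. No member was named for chlorophyll binding or a photosystem, although 71 eligible genes were. All 150 members matched RefSeq. Of the pathway lists, the pathogen defence list had 3 members, FRK1, FMO1 and SARD1, among its 10 eligible genes of 17, and its median log2 ratio was -0.13. The root marker list had 1, PLT2, a root stem cell factor, which had 119 gene body reads in the libraries labelled xrn3 and 115 in Col-0 and a log2 ratio of -0.95. The other lists, among them circadian clock, JAZ repressor, glucosinolate, iron, nitrate, phosphate, heat shock, auxin and light signalling genes, held no member. Chromosome 1 carried 55 members (36.7%, against 26.5% of eligible genes), and 6 members (4%, against 2.37%) lay within 1 Mb of XRN3. There were 4 pairs of directly neighbouring members, IGMT3 and IGMT2, AT1G26410 and AT1G26420, AT1G51790 and IOS1, and AT5G46040 and PTR3. The first of these are close paralogs, as are GSTF2 and GSTF3, and since only unique reads were kept their separate values are uncertain. AT1G26410 and AT1G26420 also share a family, as do AT1G51790 and IOS1, and the effect of this on their values was not tested.

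Receptors at the cell surface are described first. FRK1, a receptor-like kinase induced by the flagellin peptide flg22, had 3.84 RPM in the libraries labelled xrn3, then 102.1 in DMSO and 19.5 in Col-0. Its gene body reads numbered 93 and 236 in the first and last of these, a ratio of 0.197 (0.153 to 0.252). CRK13, a cysteine-rich receptor kinase, had 7.22, 26.3 and 32.8 RPM in the libraries labelled xrn3, in those with DMSO and in Col-0. The DMSO value of FRK1 was far above both untreated values, while that of CRK13 lay between them. IOS1, a leucine-rich repeat kinase that acts with immune receptors, had 26.2, 313.6 and 49.2 RPM in the same conditions, and its neighbour AT1G51790 had 11.9, 215.9 and 23.5. MLO12 and MLO6, membrane proteins of the family that sets susceptibility to powdery mildew, had 93.8 and 88.5 RPM in the libraries labelled xrn3, then 2156 and 226.1 in DMSO and 289.2 and 200.1 in Col-0. Of the 15 receptor-like kinases, 11 were listed in DMSO, 7 of them at least 1.5-fold higher and 1 lower there than in Col-0, while 15.9% and 42.5% of eligible genes listed in DMSO were higher and lower. GLR2.5, a glutamate receptor-like channel, had 2.27, 13.4 and 10.9 RPM in the libraries labelled xrn3, in those with DMSO and in Col-0.

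Transcription factor genes and other genes with a role in regulation or signalling make up the next group, which was put together after the values were seen. SARD1, a calmodulin-binding-like transcription factor that drives salicylic acid synthesis, had 323 gene body reads in the libraries labelled xrn3, then 304 in DMSO and 394 in Col-0, or 13.3, 70.1 and 32.5 RPM. FMO1, a monooxygenase of systemic acquired resistance, had 45 reads in the libraries labelled xrn3 and 59 in Col-0, a ratio of 0.381 (0.253 to 0.572), and was not listed in DMSO. Its counts are low, so the interval is wide. NAC042, a NAC transcription factor, had 9.37 RPM in the libraries labelled xrn3 and 45.0 in Col-0. EDA39, a calmodulin-binding family protein, had 114.4, 663.5 and 329.9 RPM in the libraries labelled xrn3, in those with DMSO and in Col-0. BT2, a BTB and TAZ domain protein, had the most reads of the set, with 88557 gene body reads in the libraries labelled xrn3, then 6981 in DMSO and 82938 in Col-0, or 3654, 1609 and 6842 RPM. BT2 was thus highest in Col-0 and lowest in DMSO, unlike SARD1 and EDA39, which were highest in DMSO.

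Enzymes formed the third group. The chitinases, which cut fungal cell walls, were CHI (AT2G43570; 52 gene body reads in the libraries labelled xrn3, 128 in Col-0), HCHIB (645 and 638) and CHIA (202 and 194). Since the sequencing depth over eligible genes was 24236219 reads in the libraries labelled xrn3 and 12121392 in Col-0, equal counts are a log2 ratio of about -1. HCHIB and CHIA were lower in DMSO than in Col-0, at 20.3 against 52.6 and 2.53 against 16.01 RPM. Glutathione transferases conjugate reactive compounds to glutathione. GSTF6 had 37.4, 957.7 and 152.9 RPM in the libraries labelled xrn3, in those with DMSO and in Col-0, and GSTF2 had 188.6, 178.8 and 369.8. IGMT2, an indole glucosinolate methyltransferase, had 30.2, 485.1 and 105.4 RPM, with DMSO again the highest. AT1G26410, a Berberine family oxidase and the second lowest gene, had 5.98, 7.37 and 35.8 RPM. AT5G39580, a peroxidase, had 180.3, 1005 and 451.5. DOX1, an alpha-dioxygenase that makes oxylipins after infection, had 15919 gene body reads in the libraries labelled xrn3 and 17130 in Col-0 and was not listed in DMSO.

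**Figure D2:**
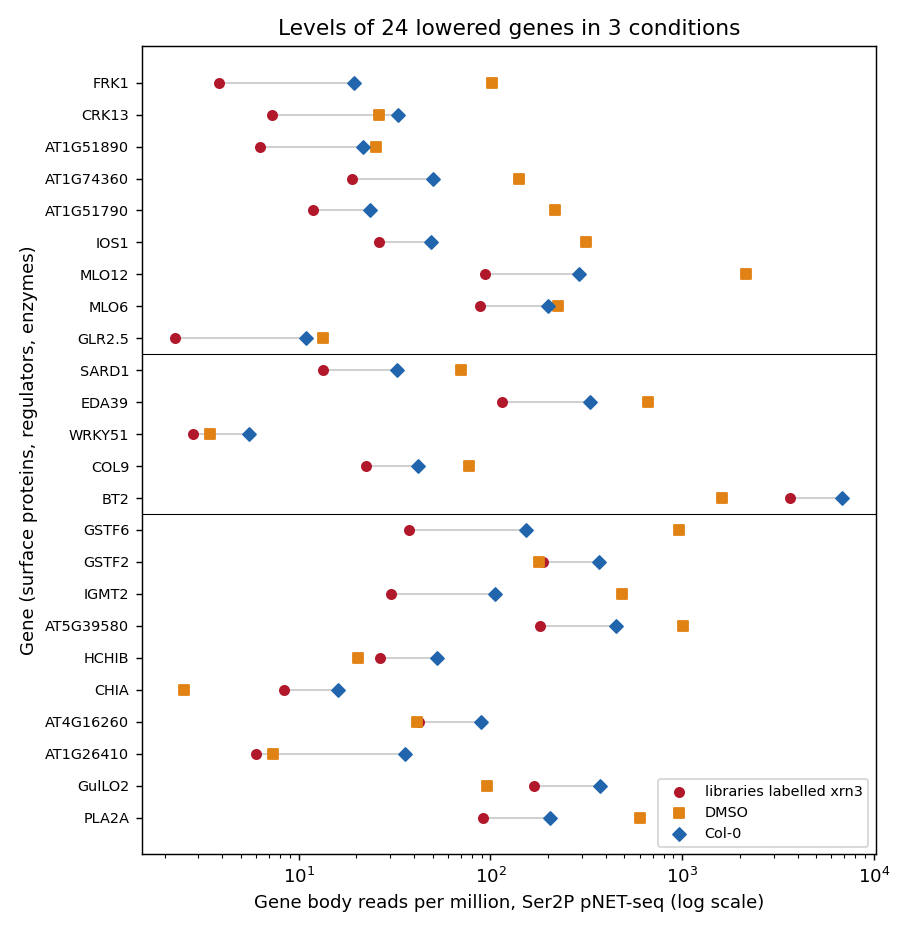
Gene body RPM (log scale) of 24 members in the libraries labelled xrn3 (circles), DMSO (squares) and Col-0 (diamonds), 1 pooled value each. Surface proteins are on top, then regulators and enzymes. The genes were picked by hand and all are listed in DMSO, as 91 of 150 members were, so they do not stand for the set. AT5G06740, a receptor-like kinase lower in DMSO than in Col-0 (13.6 against 37.5 RPM), is not shown. Every circle is left of its diamond by the rule, while the squares lie right of the diamonds for genes such as FRK1, IOS1, MLO12 and GSTF6 and left of them for BT2, HCHIB, CHIA and GulLO2.

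Other members with many reads were HIR2, a hypersensitive-induced reaction protein (488.3 RPM in the libraries labelled xrn3, then 470.3 in DMSO and 977 in Col-0), ERD6, a sugar transporter induced by dehydration (465.3, 470.6 and 897.9), UCC2, a uclacyanin (281.0, 148.2 and 556.4), PCR2, a metal exporter (170.4, 294.7 and 369.6), and GulLO2, a lactone oxidase (169.3, 95.4 and 374.7). AT4G38550, a phospholipase-like gene, had 235.4 RPM in the libraries labelled xrn3 and 462.2 in Col-0. Of these, PCR2 in DMSO lay between its untreated values, HIR2 and ERD6 were close to their level in the libraries labelled xrn3, and UCC2 and GulLO2 lay below both untreated values. Not all members are tied to defence. HEI10, a meiotic crossover factor, had 64 gene body reads in the libraries labelled xrn3 and 172 in Col-0. Ribosomal protein genes made up 3 members (2.0%, against 1.68% of eligible genes), close to their share, with log2 ratios of -1.15 to -0.92. CYP71B14, a cytochrome P450, had 42 and 116 reads and AT2G17740, a C1 domain gene, 88 and 226, in the same order. The lowest gene, AT2G23270, and AT5G44585 had 47 against 199 and 261 against 763 reads. RefSeq names both only as uncharacterized protein, which does not show whether they have a role in defence.

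Over the 91 members listed in DMSO, of 150, the median was 7.30 RPM in the libraries labelled xrn3, then 26.5 in DMSO and 21.5 in Col-0. For all 13920 eligible genes listed there it was 18.4, 14.4 and 18.23. DMSO over Col-0 shares its Col-0 value with the comparison that chose the members. On its own it gave 33 members at least 1.5-fold lower and 33 at least 1.5-fold higher, while 42.5% and 15.9% of eligible genes were lower and higher. The lower count depends on members with few DMSO reads. Among the 68 members with at least 30 reads there, 16 were lower and 32 higher, beside 33.6% and 21.0% of the 10256 genes with that many, and such a minimum itself takes out genes that are low in DMSO. The median of all genes was -0.41 on the log2 scale, and scaling to that median gave 28 members lower and 42 higher, against 27.1% and 26.9% of genes. That scaling raises every DMSO value 1.33-fold. It puts CRK13, PCR2 and XRN3, the last not a member, above Col-0. HIR2, GSTF2 and HCHIB then lie between the untreated values. The order of the other members whose DMSO values are given above stays as given. The other 59 members were not listed (60.7% of members were, against 83.7% of eligible genes), which can mean few reads or no called peak. DMSO seedlings were immersed and put under vacuum, which the untreated Col-0 seedlings were not said to be, so solvent and handling cannot be told apart.

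Members had fewer introns than other genes, by a small margin, and a lower ratio of 3' peak to gene body. Their median intron number was 3 (quartiles 1 and 8), against 4 (2 and 8) in all eligible genes, and 24 members (16%) had no listed intron, against 11.8%. Their gene bodies had a median length of 1785 bp, against 2037 bp. The 3' pause index (3'PI), the read density in the peak window over that in the gene body, had a median of 5.78 in the libraries labelled xrn3 and 4.17 in Col-0, while in all eligible genes it was 17.7 and 16.1. In Col-0, 125 of 150 members were under the median of eligible genes. The Col-0 gene body reads that chose the members are the denominator of that index, so a low Col-0 value follows in part from the rule. In DMSO, which the rule did not use, the median 3'PI was 4.89 in the 91 members listed and 10.77 in all 13920 eligible genes listed, and 70 of the 91 were under it. Among all eligible genes the Col-0 median was 5.47 with 0 or 1 introns and 14.7 with 2 to 5, and the difference was also there among genes with 6 or more introns, where it was 10.96 in members and 30.5 in all. The 3'PI was at least 1.5-fold higher in the libraries labelled xrn3 for 72 members (48.0%) and 12.6% of eligible genes, and since the gene body is its denominator this follows in part from the rule. Reads in the peak window were at least 1.5-fold lower in 96 members and in 4.42% of eligible genes, and at least 1.5-fold higher in 0 and in 7.83%, from the same tables as the rule. The median log2 ratio of peak reads was -0.84 in members and 0.03 in all. HEI10 had a 3'PI of 11.6 in the libraries labelled xrn3 and 3.94 in Col-0, FRK1 5.41 and 6.09, and DOX1 2.25 and 2.07. Peak reads were few for HEI10 (11 and 10) and FRK1 (7 and 20), and their peak windows differed between the genotypes. The 3'PI was higher in the libraries labelled xrn3 for 127 members (84.7%), beside 68.5% of eligible genes, again in part by the rule. The direction was thus not the same in every member.

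**Figure D3:**
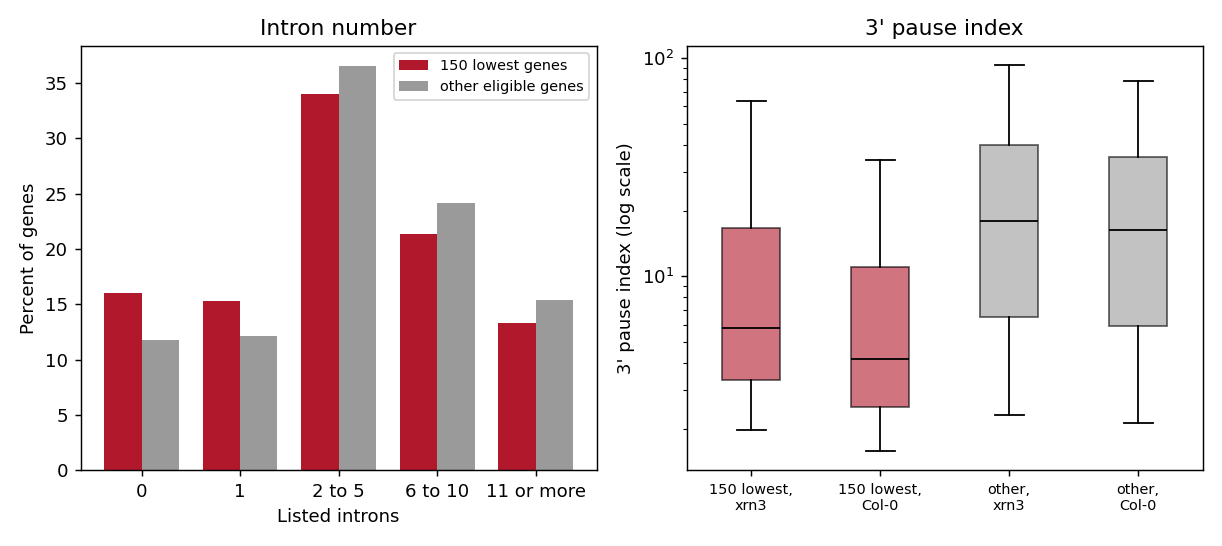
Left, percent of genes by number of listed introns, red for the 150 members and grey for the other eligible genes. Right, 3'PI on a log scale in the libraries labelled xrn3 and in Col-0 for members (red) and other genes (grey), with boxes for quartiles, a line for the median and whiskers for the 5th and 95th percentiles. Member medians of 5.78 and 4.17 are below those of the other genes.

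CB-RNA-seq of the same genotypes is a separate readout that the rule did not use. It counts reads next to splice sites, so 24 intronless members have no value, and genes under a TPM of 1 were left uncounted by the authors. Of 150 members, 45 with introns were uncounted in both genotypes, 3 were counted in Col-0 only, 4 in the libraries labelled xrn3 only, and 4 had under 60 exonic reads in all. Members were thus measured less often than other genes, with 70 of 150 (46.7%) against 80.7% of eligible genes, and those with introns uncounted in both genotypes were 30% of members against 4.48%. The 70 measured members had a median of 683.5 gene body reads in Col-0 (31 to 82938), the 56 others with introns 125 (34 to 679) and the 24 without introns 199.5 (37 to 2704). Their log2 ratio of exonic reads, libraries labelled xrn3 over Col-0, had a median of 0.05 (quartiles -0.17 and 0.28), against -0.01 in all 13430 genes measured. At least 1.5-fold lower were 3 members (4.29%), against 4.08% of genes, and at least 1.5-fold higher were 9 (12.9%), against 4.27%. Summed over the 70 members, exonic reads came to 2922 RPM in the libraries labelled xrn3 and 2763 in Col-0. ERD6, BT2 and DOX1 alone gave 378, 347 and 304 RPM of the first sum. Of the second they gave 389, 300 and 230. Lower gene body signal in pNET-seq thus stood beside exonic reads on chromatin that were about even at the median. This holds for the members that could be measured, of which a larger share than of all genes was at least 1.5-fold higher.

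The members with most reads are given first. BT2 had 9757 exonic reads in the libraries labelled xrn3 and 7956 in Col-0, a ratio of 1.16 (1.12 to 1.19), beside a gene body ratio of 0.534. DOX1 had 8550 and 6109, a ratio of 1.32 (1.28 to 1.36), beside 0.465. ERD6 had 10628 and 10307, a ratio of 0.972 (0.946 to 0.999), beside 0.518. The members lowest on chromatin were AT2G14255, an ankyrin repeat gene, with 1162 and 1826 exonic reads and a ratio of 0.600 (0.557 to 0.646), GSTU10 with 57 and 89 and a ratio of 0.604 (0.425 to 0.852), and AT5G61310, a cytochrome c oxidase subunit gene, with 34 and 51 and a ratio of 0.629 (0.395 to 0.989). CNGC10, a cyclic nucleotide gated channel, followed at 0.688 (0.569 to 0.831) and AT5G44585 at 0.692 (0.458 to 1.04). The highest were GSTF6, with 119 exonic reads in the libraries labelled xrn3 and 41 in Col-0 and a ratio of 2.74 (1.90 to 4.01), AT5G52950 at 1.96 (1.31 to 2.99), ABCB11, a P-glycoprotein of the ABC transporter family, at 1.80 (1.53 to 2.11), PCR2 at 1.68 (1.52 to 1.86) and IGMT2 at 1.68 (0.985 to 2.93). GSTF6 was thus lower in gene body signal and higher on chromatin. Of the 7 receptor-like kinases measured, none was lower and 1, AT1G51890, was higher, with 467 and 281 exonic reads. HEI10 was counted in Col-0 only, at 384 exonic reads, and CRK13 in the libraries labelled xrn3 only, at 135, so no ratio is given.

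**Figure D4:**
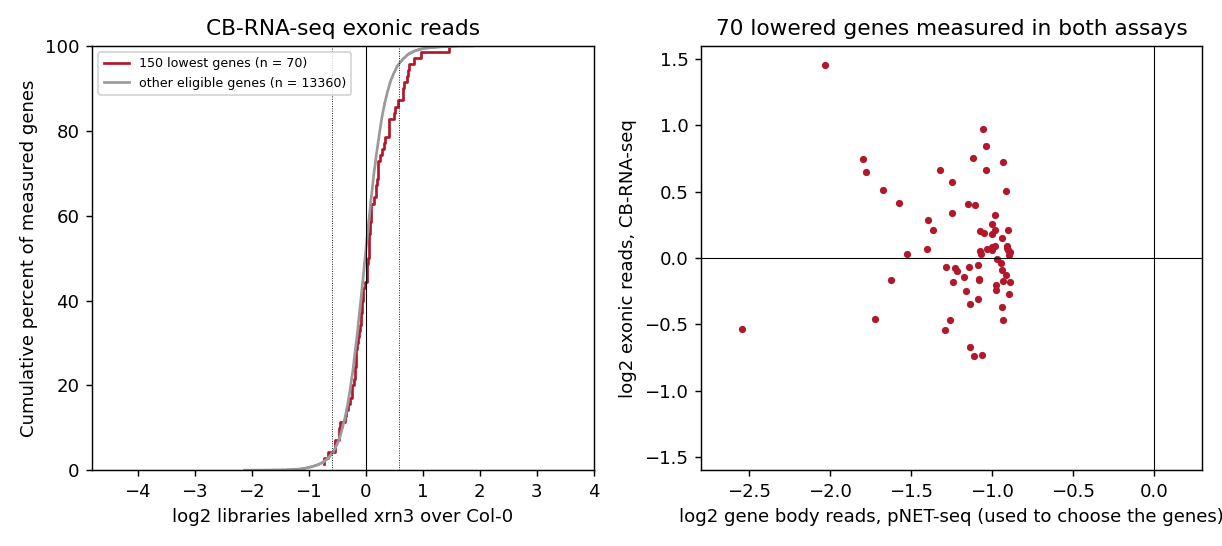
Left, cumulative percent of genes by log2 exonic reads in CB-RNA-seq, libraries labelled xrn3 over Col-0, for 70 members (red) and the other eligible genes (grey), with dotted lines at 1.5-fold. Right, the same log2 value (y axis) of those members against their log2 gene body ratio in pNET-seq (x axis), which chose them. The member curve is close to the grey one near the median. It departs at the upper end, where 12.9% of members were at least 1.5-fold higher, against 4.27% of all genes measured. Points lie on both sides of 0 on the y axis.

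With the scaling of exonic reads, intronic reads were lower in the libraries labelled xrn3 in most genes measured, and also in most members. With this scaling, 22 of 62 members measured (35.5%) were at least 1.5-fold lower and 4 (6.45%) higher, beside 31.5% and 1.82% of genes. The median log2 ratio was -0.30 in members and -0.43 in all genes. Scaled to the intronic total, 4 members were lower and 7 higher, beside 4.98% and 8.33% of genes. The median log2 ratio was then 0.16 in members and 0.03 in all genes. Intronic reads per exonic read had a median of 0.277 in the libraries labelled xrn3 and 0.345 in Col-0 for members, and 0.238 and 0.315 for all. This ratio was at least 1.5-fold lower in 24 of 70 members and higher in 1, beside 29.0% and 1.9% of genes. MLO12 had 151 intronic reads in the libraries labelled xrn3 and 375 in Col-0, at 818 and 867 exonic reads. BT2 had 6686 and 6432 intronic reads, so its intronic signal was close to even before scaling.

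GEX1A, a splicing inhibitor, against DMSO uses neither sample of the rule. Among 52 members with at least 60 gene body reads in sum, 29 were at least 1.5-fold lower in GEX1A, beside 20.4% of genes, and 3 were higher, beside 16.7%. The median log2 ratio was -0.80 in members and -0.05 in all 8545 genes. In total RNA-seq, 24 of 52 members measured were at least 1.5-fold lower, beside 11.1% of genes, and 5 higher, beside 6.38%, with a median of -0.47 in members and -0.03 in all 8870 genes. IOS1 had 117 gene body reads in GEX1A and 1361 in DMSO, a ratio of 0.0794 (0.0651 to 0.0959). AT1G51790 had 262 and 937, a ratio of 0.258 (0.224 to 0.296). In total RNA both were uncounted in GEX1A, with 1535 exonic reads of IOS1 and 2024 of AT1G51790 in DMSO. PLA2A, a lipase of the patatin family, had 1077 and 2612, and in total RNA 315 and 1438 exonic reads. GSTF2 was also lower in both assays, with 409 and 776 gene body reads and 382 and 1033 exonic reads. BT2, with 7256 gene body reads in GEX1A and 6981 in DMSO, had a ratio near 1 in pNET-seq. In total RNA BT2 had 2316 and 4257 exonic reads, a ratio of 0.727 (0.691 to 0.765). ATO, a splicing factor-like gene, was higher in gene body reads, with 146 and 57. FRK1, listed in DMSO only, gave no ratio. Members with a value here were those with a called 3' peak and reads in both treatments, and many of them were high in DMSO.

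**Figure D5:**
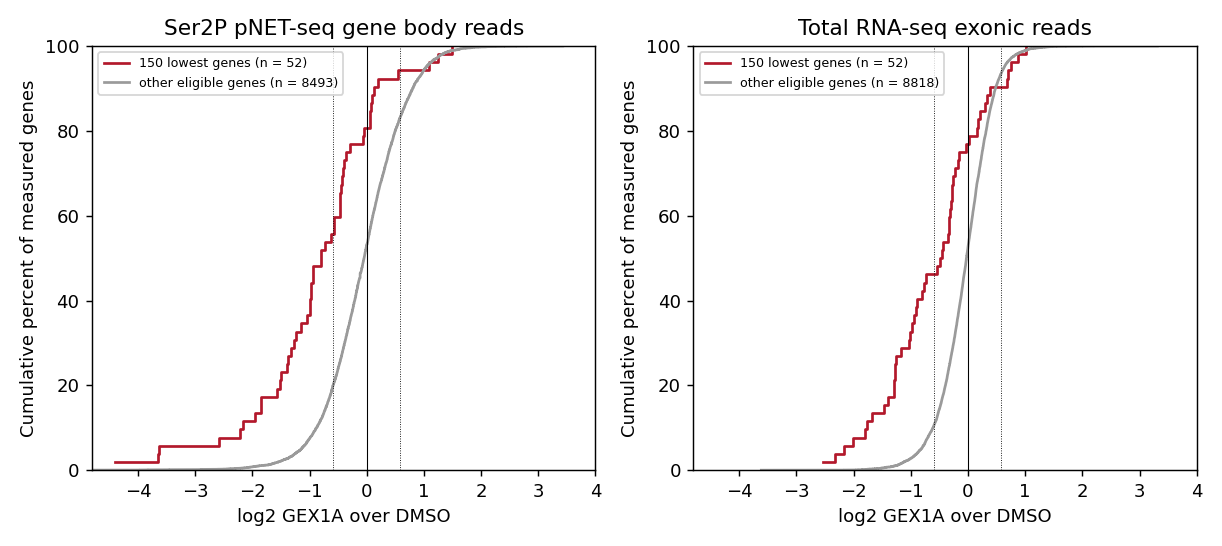
Cumulative percent of genes by log2 GEX1A over DMSO, for gene body reads in Ser2P pNET-seq (left) and exonic reads in total RNA-seq (right), red for members (52 in each) and grey for other eligible genes, with dotted lines at 1.5-fold. The red curves lie left of the grey ones, at medians of -0.80 and -0.47 against about -0.05 and -0.03.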

How the data were processed

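Ser2P pNET-seq and CB-RNA-seq had 2 libraries per condition and total RNA-seq 3, and the tables used hold 1 pooled value per condition. The authors mapped reads to TAIR10 with HISAT2 2.2.0 and kept unique reads, after trimming (Trimmomatic 0.39 for RNA-seq). The deposited gene body and peak window reads are counts that were not scaled. Before counting, the authors removed pNET-seq PCR duplicates by unique molecular identifiers and kept only the 3' nucleotide of read 1. The deposited TPM values, the authors' own, served only as an alternative ranking. The deposited ratio 3'PI divides peak window density by gene body density. Deposited p-value and q-value columns hold the authors' Fisher test of peak against gene body and were not used. For RNA-seq, the deposited counts are exonic and intronic reads beside each splice site, listed for genes that the authors found at a TPM of at least 1. An additional Col-0 intron table that names no assay was not used. Per-sample columns of other series numbered 0.

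Counts were scaled to their total over the genes compared, and DMSO and GEX1A to genes shared with Col-0 and DMSO. No pseudocount was needed. Genes with at least 60 reads summed over both conditions were compared in CB-RNA-seq, total RNA-seq and GEX1A, and ratios have exact 95% binomial intervals for counting error. The ratio and its interval were tested on simulated counts. Named genes are the 10 lowest, the 10 with most Col-0 reads, the 5 lowest and 5 highest on chromatin, 3 on either side of the rank limit, list members and XRN3. Others were named after their values were seen. Members and lists were chosen with earlier results of these data known. Promoter sequences were read from TAIR10.1 at the deposited gene starts (98.8% of listed introns had GT and AG there). Software was Python 3.11.15, numpy 2.4.6, pandas 2.3.3, scipy 1.17.1 and matplotlib 3.10.9.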

Additional observations from a re-analysis of the deposited data

How the results depend on the processing

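No paired analysis was possible because the tables analysed pool the libraries of a condition and carry no replicate number, and for the same reason no replicate could be left out. Of the 150 members, 94 remained with at least 100 reads in each genotype, which is every member with that many, 123 with at least 30 reads summed over both, 84 when ranked by TPM and 58 when ranked by peak window reads. The median log2 ratio was -1.39 for the lowest 75 genes, -0.89 for the lowest 300 and -1.07 with median scaling, against -1.10. Members at least 1.5-fold lower in exonic reads on chromatin numbered 3 with median scaling, beside 3.86% of genes, against 3 beside 4.08%. They numbered 5 with at least 20 reads, 1 with at least 200, and 0 at 2-fold. The share of all genes is not given for these and the next settings, so their counts are not set against other genes. On 1 kind of splice site they were 2 (5') and 3 (3'). Chosen after seeing the data, the count was 3 of 54 measured members with at least 100 gene body reads. It was 3 of 62 without members whose notes name defence. Members lower in intronic reads numbered 4 when scaled to the intronic total, against 22, where the median log2 ratio of all genes is 0.03 instead of -0.43. Members lower in DMSO numbered 16 with at least 30 DMSO reads, against 33, where 33.6% of genes were lower, against 42.5%, and 83 members with at least 100 reads had a 3'PI under the median, against 125, as fewer genes were counted. Other alternatives moved no count by over 1.5 times. Counting error is large for members near 30 reads.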
